A study of Mus musculus with 12 samples.

Results

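The 6 arrays described here compare spleen cells labelled activated B (3 arrays) with spleen cells labelled resting B (3 arrays), chosen by their sample labels alone out of 12 arrays in the series. All came from C57Bl/6 x FVB mice. The activated B samples were labelled as B cells kept for 4 days in culture with aCD40 and IL4, an agonistic antibody to the CD40 receptor and the cytokine interleukin-4. The resting B samples were labelled as mature CD43-negative B cells taken from the spleen at day 0. The other 6 arrays, labelled activated T (4 days with aCD3, aCD28 and IL2) and resting T (B220-negative spleen cells, day 0), entered the fit and are used below only where the labelled pairs were compared. Total RNA was hybridised to Affymetrix arrays, and the deposited values were robust multiarray average (RMA) values on a log2 scale, so that a difference of 1 is a doubling. Whether the 3 arrays of a group stand for separate mice or cultures is not given in the sources used here. Replicate 3 differed from replicates 1 and 2 in both groups in genes of the sex chromosomes. Xist, the RNA that coats the inactive X chromosome, read 4.36, 4.50 and 10.80 in arrays labelled activated B and 4.00, 3.91 and 10.62 in arrays labelled resting B, while Eif2s3y, on the Y chromosome, read 8.63, 8.55 and 2.86 in arrays labelled activated B and 8.59, 8.90 and 3.07 in arrays labelled resting B. The p-values below measure the spread between arrays of the same labelled group, pooled over all 12 arrays in the fit.

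When a resting lymphocyte is stimulated through its antigen receptor or a costimulatory receptor, it leaves quiescence, enlarges, makes ribosomes and membranes, changes its fuel use and enters the cell cycle. It also exchanges one set of surface receptors, secreted messengers and transcription factors for another. CD40, on B cells, receives a signal from helper T cells, and interleukin-4 acts on both B and T cells. T cells are instead recognised by the CD3 complex and B cells by CD79, CD20 (Ms4a1) and Pax5.

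The lineage genes did not match the labels. Cd3e, part of the CD3 complex of T cells, read 9.92, 10.19 and 10.10 in arrays labelled activated B and 10.82, 10.35 and 10.64 in arrays labelled resting B. It was high on all 6 arrays, and the difference of -0.54 (SE 0.17) had an adjusted p of 0.0215 in limma (Benjamini-Hochberg adjustment over all genes). That call was lost without resting B replicate 1 (adjusted p = 0.107), resting B replicate 3 (0.0578) or activated B replicate 1 (0.0885), all adjusted p from limma. The same gene averaged 6.43 and 5.93 on the arrays labelled activated T and resting T. Cd8a, the coreceptor of cytotoxic T cells, averaged 10.05 in arrays labelled activated B against 10.99 in arrays labelled resting B, and Cd4, the coreceptor of helper T cells, read 8.99, 9.11 and 8.97 against 9.43, 9.53 and 9.65. Both coreceptors were thus high in both groups. All 25 measured T cell genes lay above the background level in both groups, where background is the 95th percentile of the means of 1027 olfactory receptor genes, 5.21 on the log2 scale. Their median level per array was 9.60 to 9.84 in the arrays labelled activated B and 9.72 to 9.84 in arrays labelled resting B, against 5.45 to 6.17 and 5.16 to 5.56 in those labelled activated T and resting T. Within the B pair 14 of the 25 fell and 3 rose (Gata3, Icos and Cd28), with a median difference of -0.51 and a summed linear level of 21053 to 22851 against 26663 to 29929.

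B cell genes were lower in labelled activated B, and 12 of the 23 measured lay at or below background there. Ms4a1, which encodes CD20, read 4.31, 4.83 and 4.24 there and 7.78, 9.47 and 8.32 in the arrays labelled resting B. Cd79a, a signalling chain of the B cell receptor, read 4.02, 5.0 and 4.49 in arrays labelled activated B and 7.88, 8.85 and 8.09 in arrays labelled resting B. Pax5, the transcription factor that holds B cell identity, read 5.47, 5.56 and 5.19 against 7.15, 7.89 and 7.10. The groups did not overlap in any of these genes, and resting B replicate 2 was the highest array for each. All 23 measured B cell genes fell in labelled activated B (median -1.98), all 23 lay above background in the arrays labelled resting B, and their summed linear level was 1586 to 1803 against 3882 to 7998. The arrays labelled activated T and resting T, with median levels of 10.58 to 10.95 and 9.01 to 9.30, exceeded both B-labelled groups. Whether samples of the B and T pairs were exchanged was not tested. Every statement below is therefore about the arrays as labelled, and each direction is that of labelled activated B relative to labelled resting B.

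**Figure D1:**
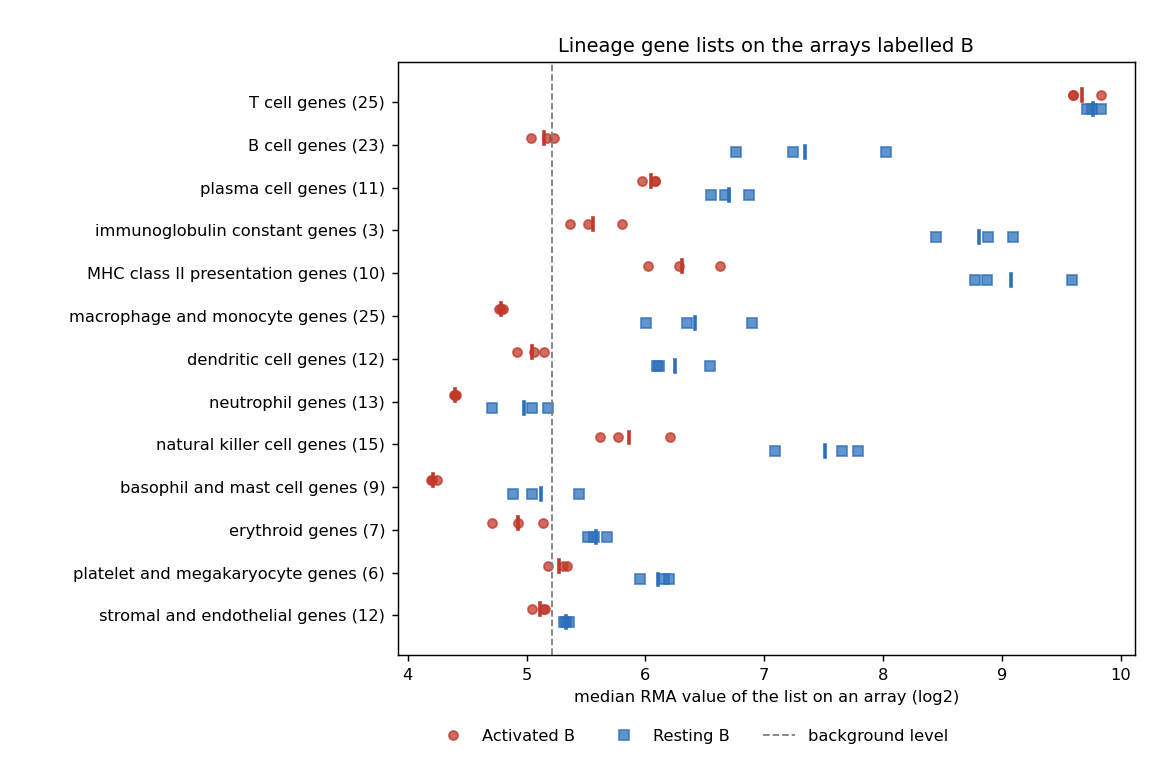
Median RMA value (log2) of 13 lineage gene lists on each of the 3 arrays labelled activated B (red circles) and the 3 labelled resting B (blue squares), with the group mean as a bar, the number of measured genes in brackets and the background level of 5.21 dashed. T cell genes lie between 9.60 and 9.84 in both groups, whereas B cell, MHC class II, macrophage and natural killer cell genes are lower in the arrays labelled activated B.

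Genes of other leukocytes fell along with the B cell genes. MHC class II genes, which present peptides to helper T cells, fell in 8 of 10 (summed level 1113 to 1318 against 6168 to 10552 in arrays labelled resting B). Macrophage and monocyte genes fell in 18 of 25 (969 to 1028 against 2575 to 4356), with Mpeg1, Slc40a1 and Lyz2 at or below background in the arrays labelled activated B. Natural killer cell genes fell in 12 of 15, although Gzma, which is in this list, rose by 1.86 and their summed level overlapped (5263 to 6670 against 4033 to 6032). Dendritic cell genes fell in 9 of 12 (854 to 922 against 1204 to 1401), basophil and mast cell genes in 9 of 9 (213 to 246 against 444 to 520), neutrophil genes in 7 of 13 (274 to 288 against 378 to 630), and platelet genes in 5 of 6 (718 to 858 against 876 to 935). Over all genes 16.7% fell. Of the 13 neutrophil genes 0 averaged above background in labelled activated B and 5 in labelled resting B. Of the 9 basophil and mast cell genes 3 and 4 did. Of 12 listed immunoglobulin constant genes only Ighm, Igha and Ighg3 were measured, and all 3 fell (114 to 141 against 836 to 1641). Ighg1, Ighe and Igkc were among those not measured. Of 11 plasma cell genes 4 fell and 4 rose (Irf4, Prdm1, Xbp1 and Slamf7), where the call for Slamf7 was lost without resting B replicate 1, activated B replicate 2 or activated B replicate 3 (adjusted p 0.0583 to 0.135). The study's methods describe magnetic removal of spleen cells that carry CD5, CD43, CD138, CD11b, Gr-1 or TER-119. Cd5 read 9.60 on each array labelled activated B and 9.73, 9.71 and 9.80 on those labelled resting B, and Itgam, which encodes CD11b, read 4.50, 4.71 and 4.51 against 6.37, 6.89 and 7.20. In RNA from a mixed sample, fewer cells of a type and less RNA per cell cannot be told apart. The part that these other cell types had in the differences below was not tested.

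Of 19937 genes tested, 3935 (19.7%) rose and 3337 (16.7%) fell in labelled activated B at an adjusted p under 0.05, together 36.5%. Without any test, the 2 groups of 3 arrays did not overlap in 4769 genes that were higher (23.9%) and 4515 that were lower (22.6%). Both criteria held for 3891 higher and 3259 lower genes, and of these 1092 (5.48%) and 726 (3.64%) differed by at least 2-fold. At 8-fold the counts were 129 higher and 55 lower, and at 32-fold 6 and 4. Genes that passed the test although their groups overlapped numbered 122. Of the genes that passed, 54.1% had risen, and the share was 41.9% (3270 higher, 4528 lower) when each array was centred on its 75th percentile, which moved the median of all genes by -0.10 on the log2 scale. The median difference of all genes was -0.02, and each list median below is to be read against it. Each list count below is to be read against the 19.7% of all genes that rose and the 16.7% that fell. In 285 of the higher genes the arrays labelled resting B were at or below background, and in 388 of the lower genes those labelled activated B were, so that the size of those differences, and their order, is uncertain.

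The largest difference was in Akr1c18, an enzyme that inactivates progesterone. Akr1c18 read 11.45, 10.86 and 10.52 in arrays labelled activated B and 3.95, 3.72 and 3.54 in arrays labelled resting B, a difference of 7.21 (SE 0.17, adjusted p = 8.84e-14). Cyp11a1, which makes pregnenolone from cholesterol in the first step of steroid synthesis, read 10.82, 10.84 and 10.98 in arrays labelled activated B against 5.33, 5.03 and 4.96 in arrays labelled resting B. Every array labelled activated B exceeded every array labelled resting B by more than 5 on the log2 scale in both genes. Of the other 8 measured steroid synthesis genes only Fdx1, the electron donor of Cyp11a1, passed the test (0.41, adjusted p = 0.00945, and 0.054 without resting B replicate 2), while Star, Hsd3b1, Hsd3b6, Cyp17a1, Cyp21a1, Cyp11b1 and Hsd17b1 had differences between -0.15 and 0.00. Akr1c18 and Cyp11a1 averaged at or below background in all other groups of the series.

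Il24, a cytokine of the interleukin-10 family, read 11.05, 10.62 and 10.96 in arrays labelled activated B and 4.18, 4.24 and 4.36 in arrays labelled resting B. Its neighbour on chromosome 1 in the same family, Il10, read 7.98, 8.11 and 8.03 against 3.53, 3.68 and 3.91. Both were below background in all 3 arrays labelled resting B and far above it in the arrays labelled activated B. Gzmb, the serine protease of cytotoxic granules that starts apoptosis in target cells, read 12.71, 12.74 and 12.76 against 6.45, 7.02 and 6.92 (5.94, SE 0.35). The receptors Tnfrsf8 (CD30) and Il2ra (the high-affinity chain of the interleukin-2 receptor) were 5.04 and 4.70 higher. Il2ra read 12.06, 11.96 and 11.89 in arrays labelled activated B and 7.29, 7.31 and 7.20 in arrays labelled resting B, with no overlap. The rest of the 15 genes with the largest positive differences were Ecm1 (4.74), an extracellular matrix protein, Pros1 (4.71), an anticoagulant that also binds receptors on phagocytes, the transcription factor Nfil3 (4.55), the cytokine Lif (4.34) and the mitotic genes Bub1, Tpx2, Nuf2 and Ncapg (4.36 to 5.03). Of the 15, 8 had a mean at or below background in the arrays labelled resting B.

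Among the genes that fell, Jchain, the protein that joins immunoglobulin units into polymers, had the largest difference. Jchain read 4.06, 4.42 and 4.42 in arrays labelled activated B and 10.62, 11.13 and 11.16 in arrays labelled resting B, a difference of -6.67 (SE 0.30, adjusted p = 2.91e-11). The kappa variable genes fell with it (all 8 named Igkv, median -3.11), and their probes can share sequence with other kappa genes. H2-Aa, a chain of an MHC class II molecule, read 5.18, 6.44 and 5.49 in arrays labelled activated B against 10.58, 11.48 and 10.81 in arrays labelled resting B. Jchain and H2-Aa separated the groups without overlap, and for H2-Aa activated B replicate 2 was the highest of its group. Slc40a1, the iron exporter of macrophages, Mpeg1, a pore-forming protein of phagocytes, Lyz2, a macrophage lysozyme, and Ncr1, an activating receptor of natural killer cells, were lower by 3.91 to 5.07.

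Some T cell genes were among the largest falls as well. Txk, a Tec-family kinase of T cells, read 5.62, 6.34 and 5.70 in arrays labelled activated B and 10.11, 10.32 and 10.50 in arrays labelled resting B (-4.42, SE 0.23). The gut-homing receptor Ccr9 read 3.75, 4.22 and 4.27 against 8.58, 8.54 and 8.67. Cd7, a surface protein of T and natural killer cells, read 5.06, 5.64 and 5.24 against 9.36, 9.61 and 9.50. All 3 had values in the arrays labelled resting B that lay close together and far above those labelled activated B. Car1, a carbonic anhydrase of red cell precursors, was 4.67 lower, with values of 9.18, 9.40 and 10.18 in arrays labelled resting B. The erythroid genes did not follow it as a list. Of 7 measured, 2 fell, 1 rose (Tfrc) and 4 were not called (median -0.14). Their summed level was 1938 to 2180 in arrays labelled activated B against 1107 to 1803 in arrays labelled resting B.

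**Figure D2:**
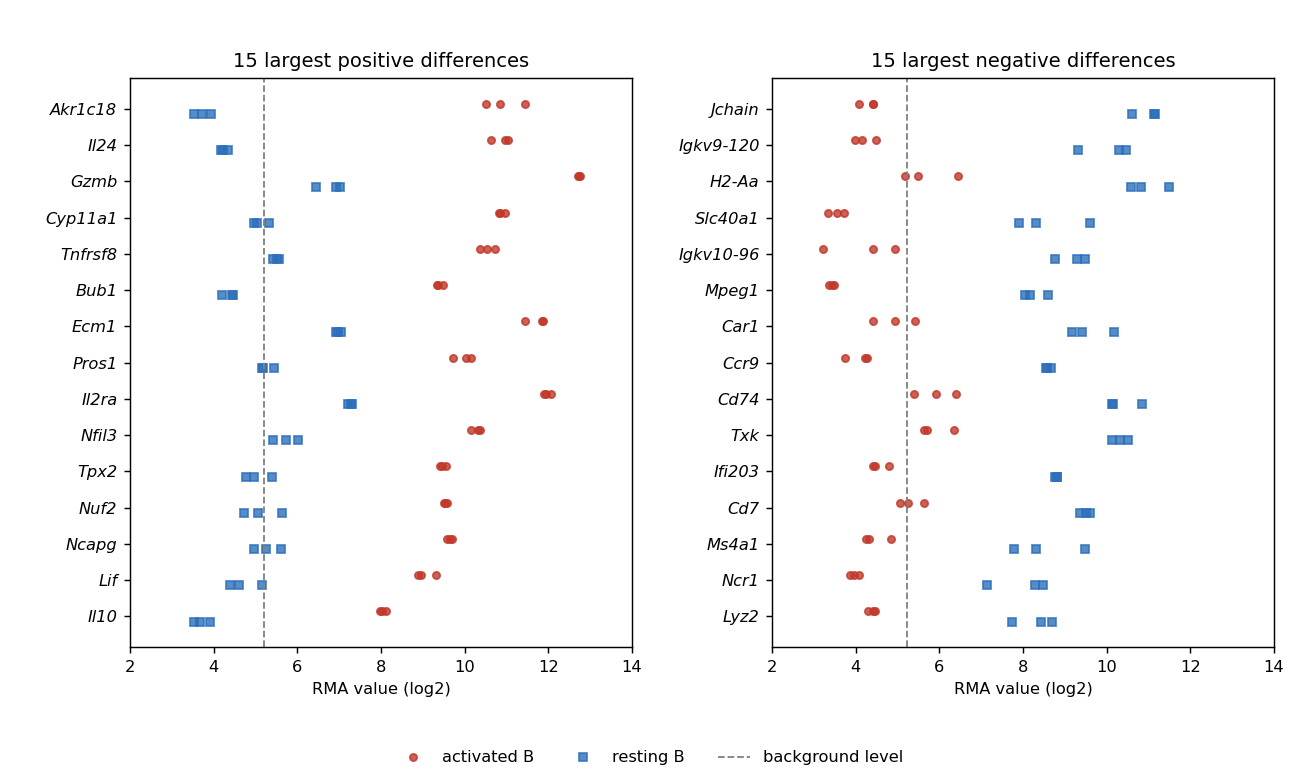
RMA values (log2) on the 3 arrays labelled activated B (red circles) and the 3 labelled resting B (blue squares) for the 15 genes with the largest positive (left) and negative (right) differences, with the background level of 5.21 dashed. No gene has overlapping groups, and most of the lower groups lie at or below background.

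DNA replication and spindle genes rose almost without exception. All 47 measured DNA replication genes rose (median 2.06), 44 of them at least 2-fold. Rrm2, the small subunit of the reductase that makes deoxynucleotides, read 11.05, 10.93 and 11.07 in arrays labelled activated B and 6.68, 6.88 and 7.13 in arrays labelled resting B. Mcm2, a subunit of the replicative helicase, read 9.92, 10.01 and 10.08 against 7.88, 7.88 and 8.09, and Pcna, the sliding clamp, read 11.41, 11.39 and 11.38 against 10.19, 10.28 and 10.16. None of these 3 genes had overlapping groups. Of 48 spindle and kinetochore genes 47 rose (median 3.33), 46 of them at least 2-fold. Bub1, a spindle checkpoint kinase, read 9.33, 9.49 and 9.38 in arrays labelled activated B and 4.20, 4.46 and 4.45 in arrays labelled resting B. Pttg1, the separase inhibitor securin, was the exception with a difference of -0.09 (adjusted p = 0.527), and its arrays of 7.11, 7.21 and 7.20 in the group labelled activated B overlapped those of 7.25, 7.13 and 7.42 in the group labelled resting B. Mki67, the proliferation marker Ki-67, read 10.57, 10.59 and 10.57 against 6.17, 6.51 and 7.0, so the spread within labelled resting B was larger.

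Cyclins and their kinases rose in 21 of 25 (median 1.60) and fell in 2. Ccna2, the S and G2 phase cyclin, and Cdk1, the mitotic kinase, were 4.16 and 3.85 higher. The D cyclins, which act in G1, did not move together: Ccnd3 rose by 0.67, Ccnd2 had a difference of 0.15 (adjusted p = 0.402) with all 6 arrays between 11.21 and 11.52, and Ccnd1 fell by 0.92. Cdkn1b, the inhibitor p27, fell by 1.38. Of 17 E2F and pocket protein genes 15 rose, led by Foxm1 (2.76), E2f8 (2.60) and Mybl2 (2.45), and E2f5, a repressor E2F, fell by 0.44. Chromosome structure genes rose in 14 of 20 and fell in 2. Ncapg, Ncapg2, Ncaph and Ncapd2, all condensin subunits, were 2.83 to 4.36 higher, whereas the condensin gene Smc4 was not called and its groups overlapped. The cohesin core genes Smc1a, Smc3 and Rad21 were 0.50 to 0.75 higher and the cohesin loader Nipbl was 0.75 lower. Histone genes rose in 15 of 19 (median 1.86) and fell in 2, H1f2 (-1.36) and H2bc4 (-1.08), and near-identical copies can share probes.

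Several genes that copy chromatin marks through the cell cycle rose with them. Uhrf1, which brings the maintenance DNA methyltransferase to newly copied DNA, read 9.99, 10.09 and 10.16 in arrays labelled activated B and 6.47, 6.44 and 6.64 in arrays labelled resting B. Dnmt1, that methyltransferase, read 9.99, 9.89 and 9.87 against 8.58, 8.74 and 8.74. Both rose without overlap, whereas the de novo methyltransferase genes Dnmt3a (-0.01) and Dnmt3b (0.06) had overlapping groups. Ezh2, the histone H3 lysine-27 methyltransferase, rose by 2.79 and its partners Suz12 and Eed by 1.03 and 0.44, while its paralog Ezh1 fell by 0.70. The call for Eed was lost when all probe sets of a gene were averaged (0.24, adjusted p = 0.0721 in limma). Of the genes for enzymes that oxidise methylated cytosine, Tet1 (-0.62) and Tet3 (-0.65) fell and Tet2 had a difference of -0.01. In all, 15 of 27 DNA methylation and heterochromatin genes rose and 4 fell, beside 19.7% higher and 16.7% lower over all genes. Of 19 DNA repair and class switch genes 13 rose and 2 fell. Rad54l, a motor protein of homologous recombination, read 9.31, 9.34 and 9.46 in arrays labelled activated B and 5.61, 5.47 and 5.75 in arrays labelled resting B, and Brca1 and Brca2 were 2.94 and 2.33 higher. The end-joining genes Lig4 (-0.32) and Xrcc4 (-0.27) fell, and the call for Xrcc4 was lost without each of 5 arrays in turn (adjusted p 0.0661 to 0.188).

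Promoters of the cell cycle genes held short sequences that are known binding sites of cell cycle regulators. The promoter of a gene was taken from RefSeq (GRCm38.p6) as the 250 bases before its start and the 50 after, and 12934 of the 19937 genes had 1 such sequence. An E2F site, spelled TTTCCCGC or TTTGGCGC on either strand, stood in 10 of 31 replication gene promoters (32.3%), in 7.1% of the promoters of genes that rose at least 2-fold, in 0.5% of those that fell at least 2-fold and in 2.3% of all. The cell cycle homology region, TTTGAA on either strand, stood in 24 of 37 spindle and kinetochore promoters (64.9%) and in 15.7% of all, and 22 of the 24 had it within 60 bases of the start. A match is a description of the letters and not a measured site. The sequences below run 5′ to 3′ along the gene's strand, and the motif is in capitals. The E2F motif is shown for 5 replication genes, where Cdc6 loads the helicase, Mcm6 and Mcm5 are helicase subunits, Pola1 is the primase-bound polymerase and Gins3 belongs to the helicase cofactor.
Cdc6 (chr11:98907993-98908040, plus strand): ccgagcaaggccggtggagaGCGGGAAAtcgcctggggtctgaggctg
Mcm6 (chr1:128359725-128359772, minus strand): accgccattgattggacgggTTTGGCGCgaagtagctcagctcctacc
Mcm5 (chr8:75109340-75109387, plus strand): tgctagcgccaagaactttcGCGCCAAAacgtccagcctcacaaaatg
Pola1 (chrX:93632266-93632313, minus strand): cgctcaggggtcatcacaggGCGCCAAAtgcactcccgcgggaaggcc
Gins3 (chr8:95633498-95633545, plus strand): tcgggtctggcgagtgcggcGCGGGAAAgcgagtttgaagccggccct

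The same display for the cell cycle homology region shows 4 mitotic kinesins and Cdc20, the activator of the anaphase-promoting complex, with the motif in capitals.
Kif11 (chr19:37376343-37376381, plus strand): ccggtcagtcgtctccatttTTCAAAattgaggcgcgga
Kif15 (chr9:122951042-122951080, plus strand): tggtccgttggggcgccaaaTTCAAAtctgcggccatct
Kif2c (chr4:117178850-117178895, minus strand): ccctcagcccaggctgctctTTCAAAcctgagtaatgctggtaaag
Kif22 (chr7:127042421-127042457, minus strand): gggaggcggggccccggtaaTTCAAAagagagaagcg
Cdc20 (chr4:118437344-118437381, minus strand): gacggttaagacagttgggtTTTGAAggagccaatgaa
The difference between the labelled groups was 4.09 for Kif11, 4.05 for Kif15, 3.81 for Kif2c, 3.19 for Kif22 and 2.83 for Cdc20, and it was 2.96 for Cdc6, 2.36 for Mcm6, 2.32 for Mcm5, 2.21 for Pola1 and 1.38 for Gins3.

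Cholesterol synthesis genes all rose (20 of 20, median 1.82). Idi1, the isopentenyl diphosphate isomerase, read 9.84, 9.68 and 9.71 in arrays labelled activated B and 6.87, 7.39 and 7.07 in arrays labelled resting B. Sqle, squalene epoxidase, read 9.09, 8.95 and 8.82 against 6.44, 6.53 and 6.28. The groups lay more than 2 log2 units apart in both. An NF-Y box, CCAAT on either strand, stood in 14 of the 14 promoters of this list that were given, in 49.1% of promoters of genes that rose at least 2-fold and in 38.7% of all, and 11 of the 14 had one within 60 bases of the start. It is shown in capitals for the 5 enzymes Idi1 (2.63), Cyp51 (2.50), Lss (2.20), Msmo1 (1.99) and Hmgcs1 (1.99), of which Hmgcs1 acts at the entry of the pathway and Lss closes the sterol ring.
Idi1 (chr13:8885572-8885605, plus strand): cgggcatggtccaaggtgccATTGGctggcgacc
Cyp51 (chr5:4104702-4104746, minus strand): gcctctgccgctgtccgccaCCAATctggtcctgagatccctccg
Lss (chr10:76531523-76531567, plus strand): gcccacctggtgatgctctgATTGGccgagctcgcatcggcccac
Msmo1 (chr8:64733609-64733653, minus strand): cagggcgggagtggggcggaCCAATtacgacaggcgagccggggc
Hmgcs1 (chr13:119690286-119690330, plus strand): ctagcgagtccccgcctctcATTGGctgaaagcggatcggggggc

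CCAAT also stood in 64.9% of the spindle and kinetochore promoters and 64.5% of the replication promoters. The other 3 motifs searched on both strands had these shares among the genes that rose at least 2-fold, with all promoters in brackets: the E-box CACGTG at 10.5% (8.3% of all), the cyclic AMP element TGACGTCA at 3.6% (2.5%) and the STAT site TTCNNNGAA at 7.7% (7.9%).

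Growth and fuel metabolism genes rose as well. All 18 aminoacyl-tRNA synthetase genes rose (median 1.06), as did 28 of 29 oxidative phosphorylation genes (median 0.79), 30 of 31 proteasome genes (0.78), 25 of 27 nucleotide and one-carbon genes (1.10) and 25 of 27 mitochondrial ribosomal protein genes (0.74). Glycolysis and pentose phosphate genes rose in 19 of 23 (median 1.59). Tpi1, triose phosphate isomerase, read 11.41, 11.23 and 11.45 in arrays labelled activated B and 7.99, 8.04 and 8.18 in arrays labelled resting B. Hk2, the inducible hexokinase, read 9.0, 8.83 and 8.90 against 5.70, 5.98 and 5.89, and Slc16a3, a lactate exporter, read 9.56, 9.48 and 9.26 against 6.41, 6.49 and 6.29. Asns, asparagine synthetase, read 10.54, 10.17 and 9.88 in arrays labelled activated B and 5.44, 5.97 and 6.48 in arrays labelled resting B, a wide spread within both groups. The amino acid carriers Slc43a3 (2.84), Slc7a5 (2.52) and Slc7a3 (1.99) rose, and 4 carriers fell, among them Slc7a7 (-0.86) and the lysosomal Slc36a1 (-0.70). Tfrc, the transferrin receptor, was 2.55 higher, beside the fall of the iron exporter Slc40a1.

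Chaperones moved in both directions. Of 20 measured, 14 rose and 4 fell. Tcp1, a subunit of the cytosolic chaperonin, rose by 1.12 and Hspd1, the mitochondrial chaperonin, by 0.89. The heat-inducible Hspa1a read 6.26, 5.88 and 5.88 in arrays labelled activated B and 10.13, 10.61 and 8.46 in arrays labelled resting B, and its cochaperone Dnajb1 fell by 1.38. Hspa8, the constitutive member, had a difference of 0.09 (adjusted p = 0.549). In the endoplasmic reticulum list 16 of 24 rose and 3 fell, with Xbp1, the transcription factor of the unfolded protein response, 1.56 higher and its target Dnajb9 lower (-2.26). Lysosome genes fell in 11 of 23 and rose in 7. Lipa, the acid lipase, read 6.95, 7.24 and 7.06 in arrays labelled activated B and 8.79, 8.91 and 8.95 in arrays labelled resting B, and Ctss and Ctsh, proteases of antigen-presenting cells, fell (-1.57 and -2.39) beside the lower MHC class II genes. The proton pump subunit Atp6v1a rose by 1.10. Cell death and survival genes rose in 4 of 18 and fell in 5 (median -0.01), beside 19.7% higher and 16.7% lower over all genes. Those that rose were Birc5 (3.55), which encodes survivin, Bak1 (1.25), Bcl2l1 (1.0) and Bcl2, and among those that fell were Mcl1 (-0.55) and Cflar (-0.80).

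**Figure D3:**
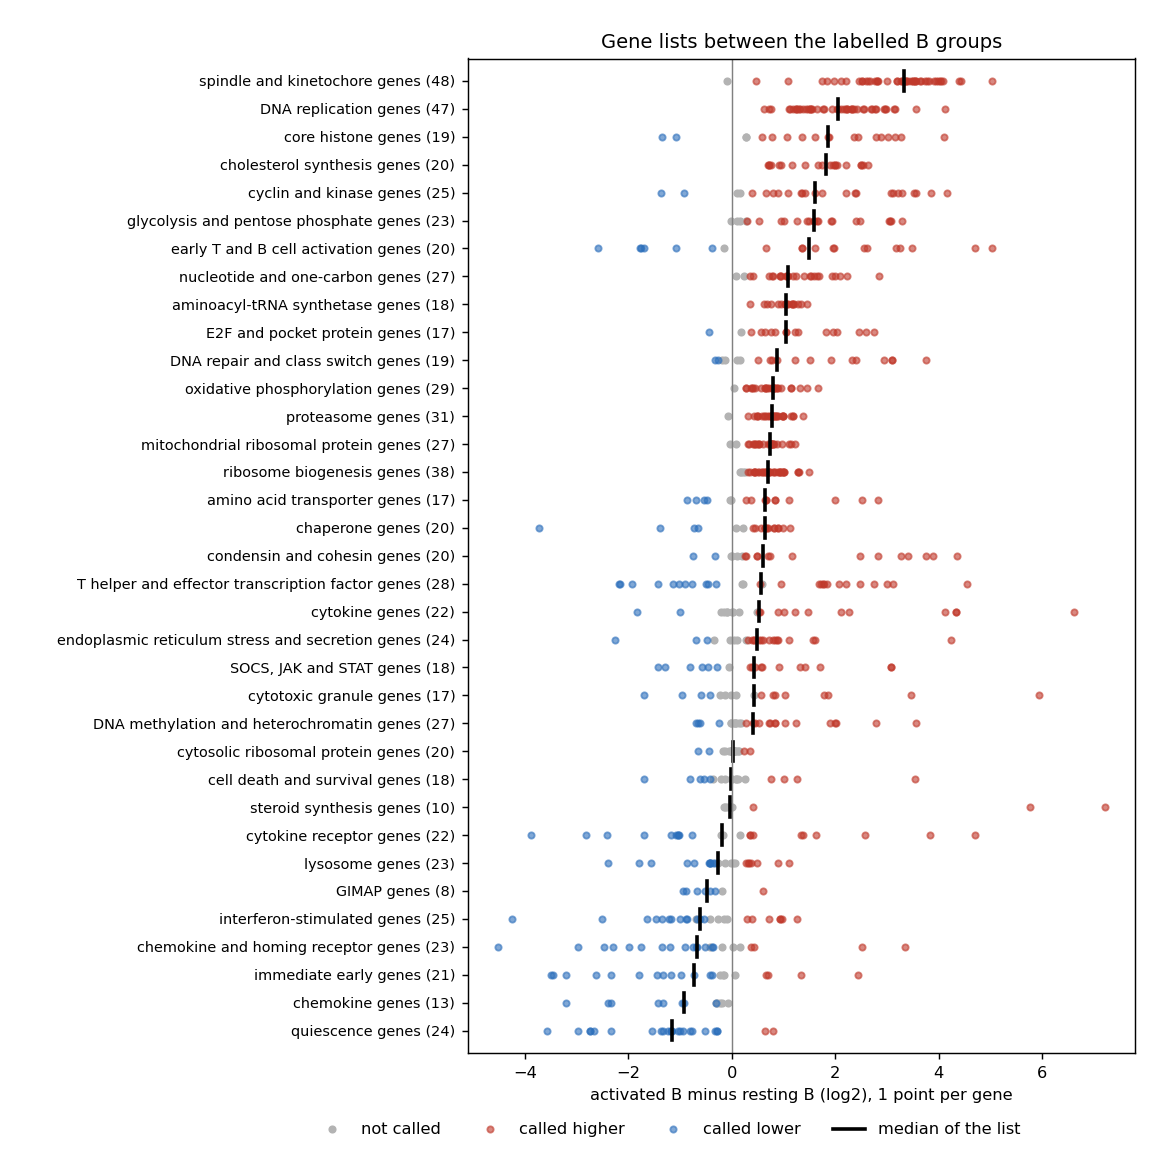
Difference between arrays labelled activated B and labelled resting B (log2) for every measured member of 35 gene lists, 1 point per gene, red and blue where limma's adjusted p was under 0.05, with the median of each list as a bar and its number of genes in brackets. Spindle and kinetochore genes (median 3.33) stand at the top and quiescence genes (median -1.17) at the bottom.

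Cytokine genes rose in 12 of 22 and fell in 2 (median 0.54). Besides Il24, Lif and Il10, Il21, which drives B cell help, read 7.29, 7.21 and 7.78 in arrays labelled activated B and 3.30, 3.31 and 3.32 in arrays labelled resting B. The type 2 cytokines Il4 (8.0, 7.70 and 7.88 against 5.96, 5.68 and 5.63) and Il13 (7.99, 7.79 and 7.70 against 5.74, 5.50 and 5.44) were about 4-fold higher. Il5 rose by 0.55 with both group means below background. In contrast Ifng, the type 1 cytokine, read 5.36, 5.79 and 5.77 in arrays labelled activated B and 6.42, 6.83 and 6.70 in arrays labelled resting B, a fall of 1.0 (SE 0.18, adjusted p = 0.000305). Il2, the T cell growth factor, had a difference of -0.09 and lay below background in both groups. Ltb, lymphotoxin beta, fell by 1.84. Chemokine genes did not rise in any of 13 and fell in 8. Ccl5, a chemokine of memory T and natural killer cells, read 8.26, 8.64 and 8.17 against 11.26, 11.73 and 11.72, and Xcl1 read 4.59, 4.59 and 4.83 against 6.66, 7.31 and 7.24, beside the lower natural killer cell genes.

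Cytokine receptors were divided, with 9 of 22 higher and 10 lower, beside 19.7% higher and 16.7% lower over all genes. Il12rb2, a chain of the interleukin-12 receptor, read 10.43, 10.52 and 10.43 in arrays labelled activated B and 6.40, 6.47 and 7.01 in arrays labelled resting B. Il18r1, the interleukin-18 receptor, ran the other way at 4.47, 4.65 and 4.27 against 8.14, 8.30 and 8.59. Il6ra (-2.42) and its signalling partner Il6st (-1.71) fell, while Il4ra rose by 1.62 and Il2rb by 1.38. Cish read 9.56, 9.64 and 9.52 in arrays labelled activated B against 6.57, 6.48 and 6.41 in arrays labelled resting B, and Socs2 read 9.73, 9.34 and 9.44 against 6.26, 6.45 and 6.55. Both encode feedback inhibitors of JAK and STAT signalling, and neither had overlapping groups. In the list of SOCS, JAK and STAT genes 11 of 18 rose and 6 fell, among them the kinase Jak1 (-1.29) and Stat6 (-0.46), the transducer of interleukin-4.

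Early activation genes rose in 13 of 20 and fell in 6. Tnfrsf9 (3.48), Lag3 (3.26), Tnfrsf4 (3.17), Tigit (2.62), Ctla4 (1.97) and Icos (1.60), costimulatory and inhibitory receptors of T cells, were among those that rose. Cd69 (-1.76), Cd40lg (-1.78), Fasl (-1.70), Cd40 (-1.09), Cd86 (-2.58) and Cd44 (-0.39) fell. Cd40, the receptor that the labelled stimulus engages, read 5.87, 5.45 and 5.52 in arrays labelled activated B and 6.49, 7.22 and 6.40 in arrays labelled resting B. Of 5 activation markers that the study names and that were measured, Myc rose by 1.24, Ccnd2 did not pass the test, and Cd44, Fas and Il5ra fell. Il5ra was below background in both groups. Cytotoxic granule genes rose in 8 of 17 and fell in 4. Gzmc read 7.52, 7.97 and 7.57 in arrays labelled activated B against 4.14, 4.36 and 4.16 in arrays labelled resting B, and Gzma was 1.86 higher, although granzymes of the chromosome 14 cluster can share probe sequence. Prf1, perforin, had a difference of -0.14 (adjusted p = 0.753).

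Transcription factors of T helper and effector cells rose in 14 of 28 and fell in 11. Nfil3 read 10.16, 10.32 and 10.36 in arrays labelled activated B and 5.41, 5.74 and 6.02 in arrays labelled resting B. Rbpj, the DNA-binding partner of Notch, read 11.11, 11.01 and 11.09 against 7.88, 7.85 and 8.10, and Irf4, which grades the response to receptor signals, read 9.88, 9.47 and 9.54 against 6.36, 6.87 and 6.65. These 3 factors separated the groups by more than 2 log2 units. Epas1 (2.76), Zbtb32 (2.49), Hif1a (2.20), Gata3 (1.85), the type 2 helper factor, and Prdm1 (1.77) rose too. Among those that fell were Tox (-2.18), Ikzf2 (-2.17), Eomes (-1.92), Bcl6 (-1.42), the follicular helper and germinal centre factor, and Foxp3 (-1.14), the regulatory T cell factor, which read 5.88, 6.05 and 5.80 in arrays labelled activated B against 7.08, 7.06 and 7.0 in arrays labelled resting B.

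Quiescence genes, expressed in resting lymphocytes, fell in 22 of 24 (median -1.17). Klf2, which maintains quiescence and homing, read 7.24, 7.21 and 7.27 in arrays labelled activated B and 10.07, 9.93 and 9.95 in arrays labelled resting B. S1pr1, the receptor by which lymphocytes leave lymphoid organs and a target of Klf2, read 7.86, 7.92 and 8.0 against 10.91, 10.78 and 11.03. Klf3 read 5.67, 5.48 and 5.52 against 9.12, 8.93 and 9.35. The arrays of each group lay close together for all 3, with no overlap between groups. Cdkn2d (0.80) and Rbl2 (0.64) rose against the rest of the list. Homing receptors fell in 15 of 23 and rose in 4, of which Ccr8 (7.78, 7.84 and 7.78 against 4.36, 4.34 and 4.67) and Ccr4 (9.73, 9.45 and 9.47 against 6.73, 7.23 and 7.12) are receptors of type 2 helper and regulatory T cells.

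Immediate early genes, transcribed within minutes of a stimulus, fell in 13 of 21 and rose in 4 (median -0.73). Jun read 6.86, 7.37 and 7.14 in arrays labelled activated B and 10.57, 10.88 and 10.43 in arrays labelled resting B, Fos read 5.30, 5.41 and 5.13 against 8.64, 9.0 and 8.56, and Dusp1, a phosphatase that ends MAP kinase signals, read 7.06, 7.20 and 7.12 against 10.25, 10.47 and 10.28. All 3 were lower in every array labelled activated B. Ier3 (2.43), Atf3 (1.34), Dusp5 (0.69) and Dusp6 (0.66) rose.

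Interferon-stimulated genes fell in 13 of 25 and rose in 7 (median -0.62), beside 16.7% lower and 19.7% higher over all genes. Irf7, the factor that amplifies type I interferon, read 5.88, 6.25 and 6.21 in arrays labelled activated B and 7.74, 7.64 and 7.85 in arrays labelled resting B. Gbp3, an interferon-inducible GTPase, rose by 1.26. The largest falls were in the Ifi200 family of DNA-binding proteins on chromosome 1, in which Ifi203 read 4.40, 4.78 and 4.45 against 8.76, 8.82 and 8.80 and Ifi206 read 4.03, 4.48 and 5.16 against 8.07, 8.13 and 8.50. Members of this family are similar and can share probe sequence.

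Families of genes that share the letters of a symbol were ranked by the share of members whose groups did not overlap in 1 direction, over 327 families of at least 8 tested genes. A family in this sense is a naming group, and it was compared only with 23.9% higher and 22.6% lower over all genes. Among the 12 families with the largest share higher were several that name subunits of protein complexes. All 14 Psmd genes (regulatory particle of the proteasome, median 0.82), all 9 Cops genes (COP9 signalosome, 0.82) and all 9 Cct genes (cytosolic chaperonin, 0.65) were higher without overlap, with 44 of 48 Mrpl, 25 of 29 Mrps, 13 of 14 Timm (mitochondrial import), 17 of 20 Nup (nuclear pore), 8 of 9 Exosc (RNA exosome) and 7 of 8 Nop genes (nucleolar proteins). In the opposite direction stood all 8 Igkv genes (median -3.11), 8 of 10 Tlr genes (Toll-like receptors, -0.81), 11 of 15 Ifi genes (-1.10), 6 of 8 Gimap genes (GTPases of lymphocytes, -0.47), 6 of 8 Smad genes (transducers of TGF-beta signals, -0.52), 11 of 17 Klf genes (-0.32) and 61 of 94 Cd genes (-0.44). No median of these 24 families changed sign when arrays were centred on the median or the 75th percentile or quantile normalized. The Tlr genes include receptors of B cells and macrophages: Tlr7 read 3.18, 3.47 and 3.78 in arrays labelled activated B and 5.15, 5.62 and 5.43 in arrays labelled resting B, and Tlr1 was 1.50 lower.

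**Figure D4:**
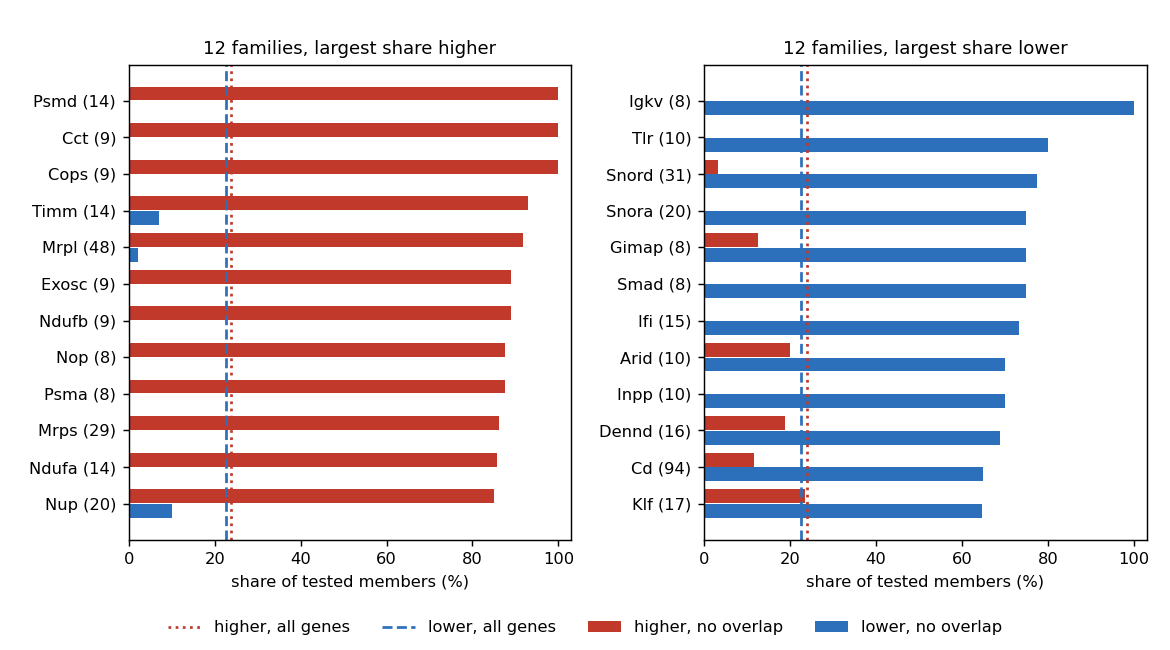
Share of tested members (%) of each symbol family whose 3 arrays labelled activated B all lay above (red) or all below (blue) the 3 labelled resting B, for the 12 families with the largest share of members higher (left) and lower (right), with the family size in brackets and the shares over all genes (23.9% and 22.6%) as lines. Psmd, Cct and Cops reach 100% higher, and Igkv 100% lower.

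Small nucleolar RNA (snoRNA) genes fell while the protein genes of the same machinery rose. snoRNAs guide the chemical modification of ribosomal RNA, and most lie in introns of other genes. Of 53 tested, 39 were lower (73.6%), 1 higher and 13 not called, with a median difference of -0.89. Snord61 read 5.64, 4.99 and 5.63 in arrays labelled activated B and 9.52, 9.21 and 9.03 in arrays labelled resting B. Snord15b read 9.29, 9.29 and 9.08 against 12.11, 11.69 and 11.61, and Snord14e read 7.56, 7.36 and 7.50 against 10.57, 10.92 and 9.62. The groups were separated in all 3, and Snord52 was the one that rose (1.0). Proteins that bind snoRNAs rose, with Nop58 at 0.99, Nop56 at 0.75 and Fbl, the methyltransferase, at 0.68, and 34 of 38 ribosome biogenesis genes rose, none falling (median 0.70). The tested gene whose span held the snoRNA did not fall with it in most cases. By RefSeq coordinates, without regard to strand, 31 snoRNA genes lay inside exactly 1 other tested gene, 27 such hosts in all, whose median difference was 0.07. Of the 24 snoRNA genes that fell and had a host, 6 had a host that rose, 14 a host that was not called and 4 a host that fell. Snord57 (-1.41) lay inside Nop56, Snora20 (-0.89) inside Tcp1 (1.12), Snord15b (-2.58) inside Rps3 (0.07, adjusted p = 0.612) and Snord14e (-2.90) inside Hspa8. Cytosolic ribosomal protein genes rose in 2 of 20 (Rpl27 and Rps2) and fell in 2, Rps29 (-0.65) and Rpl30 (-0.45). Over all genes 19.7% rose and 16.7% fell, so neither count stood out. The median of the list, 0.03, became -0.07 with arrays centred on their 75th percentile or quantile normalized. The calls for Rpl27, Rps2 and Rpl30 were each lost in at least 1 alternative, Rps2 without each of 5 arrays in turn (adjusted p 0.0545 to 0.111) and Rpl30 without activated B replicate 2 (0.0533). In the T-labelled pair, 28 snoRNA genes were higher in arrays labelled activated T and 5 lower.

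MicroRNA genes were measured through their genes or precursors, so that the mature RNAs were not measured on their own. Of 297 tested, 25 rose (8.4%) and 28 fell (9.4%), smaller shares than the 19.7% and 16.7% over all genes. Mir155, which is made from a host RNA induced in stimulated lymphocytes, read 7.90, 8.14 and 8.41 in arrays labelled activated B and 5.48, 5.32 and 5.33 in arrays labelled resting B (2.77, SE 0.17, adjusted p = 9.19e-10). A run of 5 neighbouring tested microRNA genes of the Mir17 cluster on chromosome 14 was higher by 0.48 to 0.81. The run was found by requiring each member to be called higher without overlap, so that all 5 rose was set by the choice. Their host transcript Mir17hg had a difference of 0.40 (adjusted p = 0.055 in limma). It passed the test in 6 alternatives (0.0127 to 0.0498), among them without resting B replicate 2 or activated B replicate 2. Mir15a rose by 0.53, whereas Mir15b (-1.0) and Mir16-2 (-0.89), on chromosome 3, fell. These were named after their values were seen. Of the tested microRNA genes 271 had a mature sequence (RefSeq, GRCm38.p6), and those of the genes named here are shown 5′ to 3′ with the seed, bases 2 to 8, in capitals, since the seed sets which messages a microRNA can pair with.
Mir155 (chr16:84714143-84714165, plus strand): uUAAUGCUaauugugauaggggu
Mir17 (chr14:115043684-115043706, plus strand): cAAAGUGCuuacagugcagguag
Mir20a (chr14:115044183-115044205, plus strand): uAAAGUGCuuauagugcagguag
Mir93 (chr5:138165574-138165596, minus strand): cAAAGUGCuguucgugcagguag
Mir18 (chr14:115043867-115043889, plus strand): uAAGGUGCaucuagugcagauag
Mir19a (chr14:115044048-115044070, plus strand): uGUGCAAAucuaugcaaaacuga
Mir19b-1 (chr14:115044358-115044380, plus strand): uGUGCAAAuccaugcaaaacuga
Mir15a (chr14:61632075-61632096, minus strand): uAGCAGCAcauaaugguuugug
Mir15b (chr3:69009775-69009796, plus strand): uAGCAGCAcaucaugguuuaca
Mir16-2 (chr3:69009918-69009939, plus strand): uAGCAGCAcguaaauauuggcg
Mir17, Mir20a and Mir93, on a separate chromosome from the first 2, share the seed AAAGUGC and rose by 0.48, 0.81 and 0.64. Mir19a (0.70) and Mir19b-1 (0.62) share GUGCAAA, and Mir18 (0.48) has AAGGUGC. The AGCAGCA seed was shared by genes of opposite direction, Mir15a higher and Mir15b and Mir16-2 lower. Mir17 read 5.31, 5.22 and 5.71 in arrays labelled activated B and 5.13, 4.80 and 4.88 in arrays labelled resting B, close to background, so these small differences rest on dim probe sets. Mir17 lost its call without activated B replicate 3 (adjusted p = 0.0641), and Mir18 without each of 4 arrays in turn (0.0846 to 0.206).

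Along the chromosomes, runs of at least 5 neighbouring tested genes that were called and did not overlap in the same direction included several known gene clusters. The runs described here were picked for their known genes. Others are left out, such as 7 higher genes from Tm9sf4 to Nol4l on chromosome 2 (median 0.43). Both criteria held for 3891 higher and 3259 lower of 19937 genes, and how many runs such shares alone would give was not tested. The longest run that was lower held 9 genes of the natural killer receptor cluster on chromosome 6, Klre1 to Klri2 (median -1.51), in which Klrd1 read 7.49, 7.81 and 7.48 in arrays labelled activated B against 8.80, 9.19 and 9.31 in arrays labelled resting B. The 8 genes from Aim2 to Ifi203 on chromosome 1 had a median of -3.20. MHC class II genes from H2-Ob to Btnl2 on chromosome 17 made a run of 7 (-2.95). The interferon receptor run Ifnar2, Il10rb, Ifnar1, Ifngr2, Tmem50b and Dnajc28 on chromosome 16 was lower by a median of 0.61, Dnajc28 lost its call without resting B replicate 3 (adjusted p = 0.0531) or activated B replicate 1 (0.1), and Ifngr2, a chain of the interferon-gamma receptor, read 7.80, 7.87 and 7.93 against 8.97, 9.07 and 8.82.

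Runs that were higher included the type 2 cytokine cluster on chromosome 11. Septin8, Kif3a, Il4, Il13, Rad50 and Il5 had a median difference of 1.78, and Kif3a, a kinesin gene next to Il4, read 7.81, 7.45 and 7.47 in arrays labelled activated B and 4.98, 4.98 and 5.28 in arrays labelled resting B. Rad50, a DNA repair gene between Il13 and Il5, read 9.22, 9.15 and 9.21 against 7.65, 7.77 and 7.80. Neither had overlapping groups. A second run on chromosome 11 held the cytokine genes Osm and Lif with 5 neighbours (median 1.48), among them Castor1, an arginine sensor of the mTORC1 pathway, which read 9.56, 9.41 and 9.67 in arrays labelled activated B and 6.00, 6.33 and 6.70 in arrays labelled resting B. On chromosome 1 the costimulatory genes Cd28, Ctla4 and Icos rose with Cyp20a1, Abi2 and Raph1 (median 1.48), though the call for Cd28 was lost without resting B replicate 1 (adjusted p = 0.0608) or activated B replicate 3 (0.054). On chromosome 13 Irf4 rose in a run of 5, and on chromosome 7 Il4ra stood in another of 5 (median 0.50).

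The 2 groups differed in how close their arrays lay to each other. The median SD over arrays was 0.09 for labelled activated B, over the 11873 genes above background there. It was 0.12 for labelled resting B, over the 12084 genes above background in that group. Of the 11451 genes above background in both groups, 39.0% had the larger SD in labelled activated B. Some B cell and macrophage genes varied widely within labelled resting B. Cr2, a complement receptor of B cells, read 4.43, 4.52 and 3.72 in arrays labelled activated B and 6.85, 8.85 and 7.78 in arrays labelled resting B, and C1qa, a macrophage complement gene, read 5.15, 5.61 and 5.20 against 7.15, 7.82 and 6.57. Both were highest on resting B replicate 2.

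The labelled T pair ran against the labelled B pair for most of these genes. In the T pair 3177 genes were higher (15.9%) and 3545 lower (17.8%) in arrays labelled activated T. Of the genes higher in the B pair, 2575 were lower in the T pair, 173 were higher and 1187 were not called. Of those lower in the B pair, 1972 were higher in the T pair, 175 were lower and 1190 were not called. The difference between the 2 pairs, tested with limma as an interaction, was significant for 8518 genes (42.7%). Bub1 was 5.03 higher in labelled activated B than labelled resting B and 4.91 lower in labelled activated T than labelled resting T (difference 9.95, SE 0.22, adjusted p = 5.4e-15). The median of the spindle list was 3.33 in the B pair and -2.66 in the T pair, and that of the quiescence list -1.17 and 0.94. Median levels of the spindle list were 5.268 to 5.578 in arrays labelled activated T and 8.159 to 8.235 in those labelled resting T. For the quiescence list they were 8.663 to 8.937 and 7.645 to 7.942. The cell cycle genes thus ran against the activated and resting labels of the T pair. Whether these labels were exchanged was not tested.

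Some genes passed the test in the B pair and not in the T pair. Akr1c18, Cyp11a1, Ecm1, Il10 and Lif had T pair differences between -0.43 and 0.20, none passing the test, and their differences between the pairs did (4.39 to 7.01). Il21, Ccr8, Epas1 and Il13 showed the same, with T pair differences of 0.13, 0.03, -0.01 and 0.13. Hif1a, on the other hand, was higher in both pairs (2.20 and 0.33). Among genes lower in both pairs were Jchain (-6.67 and -2.84) and Tlr7 (-1.92 and -2.09), for which the difference between the pairs did not pass the test (0.17, adjusted p = 0.61). Bcl2, a survival gene, was higher in both pairs (0.75 and 0.65), with a difference between them of 0.10 (SE 0.15, adjusted p = 0.637).

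**Figure D5:**
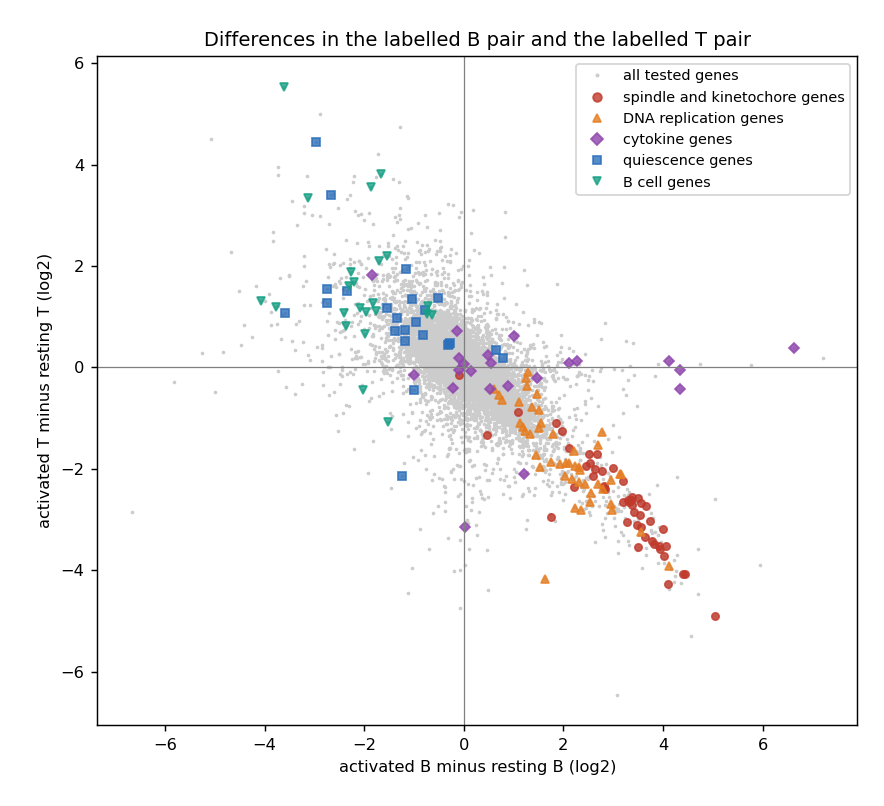
Difference between arrays labelled activated B and labelled resting B (horizontal, log2) against that between arrays labelled activated T and labelled resting T (vertical, log2) for all 19937 tested genes (grey) and 5 gene lists (coloured). Spindle and replication genes lie at lower right, B cell genes mainly at upper left, and 4 cytokine genes (Il24, Lif, Il10 and Il21) far to the right near 0 on the vertical axis.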

How the data were processed

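Total RNA from 12 samples in 4 labelled groups of 3 was hybridised to Affymetrix arrays. The authors deposited log2 values made by robust multiarray averaging (RMA), per the submitters' processing notes, 1 value per probe set and array. Tool versions were not given in the sources used here. Array medians were 5.497 to 5.68, and the number of arrays limits the precision.

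Of 34760 probe sets, 21640 had 1 gene symbol in the platform annotation, 1321 several and 11799 none. The 19937 genes with a symbol were tested, each by its probe set with the highest mean where it had several (954 genes). limma (version 3.58.1, R 4.3.3; lmFit and eBayes) was fitted to all 12 arrays and 4 group means, without a replicate block, and p-values were adjusted by Benjamini-Hochberg over all genes (threshold 0.05). The fit was tested on simulated data. The difference between the labelled pairs was tested as an interaction. Counts without overlap compared the lowest array of one group with the highest of the other. Gene lists, symbol families and promoter motifs were described by counts, medians and shares. Promoter and microRNA sequences came from RefSeq (GRCm38.p6). Tables were handled in Python 3.11.15 (pandas 2.3.3, numpy 2.4.6) and drawn with matplotlib 3.10.9.

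Named genes were the 15 largest differences in each direction, the first 4 members and 3 largest changes of each list, members that moved against their list, the activation genes the study names and the cell type markers. Some genes in the accounts of neighbouring genes, of microRNAs, of snoRNAs and of the labelled T pair were named after their values were seen. The members and lists were chosen with earlier results of these data known. Alternatives changed the scaling, the filter on dim genes, the probe sets per gene, the arrays in the fit, the variance model and the replicate block. Each of the 6 arrays labelled B was also left out in turn, whereas the arrays labelled T were not.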

Additional observations from a re-analysis of the deposited data

Results flagged for a closer look

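Among the 30 genes with the largest differences in the labelled B pair, 18 differed in the opposite direction in the labelled T pair and passed the test there too. The values given are the difference between the pairs (B pair difference minus T pair difference, log2). All 30 genes passed limma's test of that difference. It contains the B pair difference by which they were chosen, so passing it does not set the 18 apart. Among the 18, the values were positive for 9 genes. The mitotic genes Bub1 (9.95), Ncapg (8.62), Tpx2 (8.5) and Nuf2 (8.47) were higher in arrays labelled activated B than resting B and lower in arrays labelled activated T than resting T. The same held for the transcription factor Nfil3 (9.85), the granzyme Gzmb (9.84), the anticoagulant Pros1 (9.18) and the receptors Il2ra (8.29) and Tnfrsf8 (7.63).

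The values were negative for the other 9. Slc40a1 (-9.59), Car1 (-6.94), Lyz2 (-5.36) and Ncr1 (-5.3), genes of macrophages, red cell precursors and natural killer cells, were lower in arrays labelled activated B than resting B and higher in arrays labelled activated T than resting T. So were the lymphocyte genes Ccr9 (-6.03), Cd7 (-5.79), Ms4a1 (-5.37) and Txk (-5.26) and the interferon-inducible Ifi203 (-4.85). Car1 did not stand for the erythroid genes as a list, of which 2 of 7 fell and 1 rose in the labelled B pair.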

How the results depend on the processing

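Higher calls numbered 3270 to 5352 and lower calls 3034 to 5501 over the alternatives that kept all arrays labelled B, against 3935 and 3337. They numbered 3560 to 3740 and 2841 to 3113 when each array labelled B was left out in turn. Testing every probe set, named or not, tested 34760 features in place of 19937 and gave 5501 lower calls, counted in probe sets, and the counts of genes lower without overlap and of genes that differ from the labelled T pair became 8073 and 13700 probe sets. The median of the steroid synthesis genes was -0.03 and became 0.41 under both filters on dim genes, which removed members at background. The median of the cytosolic ribosomal protein genes turned negative with 75th percentile centring, quantile normalization (-0.07) or without activated B replicate 2. With the replicate number as a block, 3849 genes were higher and 3270 lower. Same-numbered arrays of the 2 groups had deviations correlated at -0.06, 0.06 and 0.25 over 12170 genes, so the numbers were not taken to pair the arrays. Of 244 named genes, 224 passed the test, 14 of these lost the call in at least 1 alternative, and none of the 224 changed sign. Cd8a lost it without resting B replicate 2 (adjusted p = 0.0632), activated B replicate 1 (0.0564) or activated B replicate 3 (0.0516), and Aim2 without resting B replicate 2 (0.0664) or resting B replicate 3 (0.061). Genes at background have no reliable difference.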

Other observations

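Probe sets without a gene symbol, which the gene counts leave out, were more often lower than higher in the arrays labelled activated B. Of 11799, 1065 were higher and 2079 lower at an adjusted p under 0.05 in limma, with a median difference of -0.10, whereas of 21640 probe sets with 1 symbol 4041 were higher and 3244 lower, with a median of -0.01. The share of higher genes per chromosome ran between 15.3% on chromosome 7 and 23.3% on chromosome 11, and the share of lower genes reached 21.7% on chromosome 1. Long noncoding RNA genes were higher in 32 (4.7%) and lower in 73 (10.8%) of 675, below the shares over all genes of 19.7% and 16.7%.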
